A study of Homo sapiens with 6 samples.

Results

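The genes described here are 10 regulators of the G1 phase of the cell cycle: the D cyclins CCND1, CCND2 and CCND3, the kinases CDK2, CDK4 and CDK6, the kinase inhibitor p27 (gene CDKN1B), and the pocket proteins RB1, RBL1 (p107) and RBL2 (p130). They were taken by gene name from a table of read counts for 58735 genes, and all 10 names were found. The counts come from RNA-seq of 6 libraries of RPE-1, a human retinal pigment epithelial cell line immortalized with telomerase. All 6 libraries come from a derivative of that line in which centrioles are marked by GFP-tagged Cetn2 and PLK4 sits behind a promoter switched on by rtTA and doxycycline. In 3 libraries SON, a splicing factor of nuclear speckles, was knocked down by a transfected siRNA (siSON), and in the other 3 the cells received a scramble siRNA (siControl). Both groups received doxycycline at 1 µg/mL to induce PLK4, so the controls also carry induced PLK4, and each difference below is one of SON knockdown on that background. Neither the harvest time nor whether replicates were separate cultures is given in the labels, so p-values measure the spread between these libraries only.

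In G1, mitogens raise the D cyclins, which bind and activate CDK4 and CDK6. These kinases, and then cyclin E with CDK2, phosphorylate the pocket proteins. RB1 when unphosphorylated holds the activating E2F factors in check, while RBL1 and RBL2 work mainly with E2F4 and, with the MuvB proteins, form the DREAM complex that represses cell cycle genes in quiescent cells. p27 binds cyclin and CDK complexes and inhibits CDK2. D cyclins and p27 are strongly controlled by protein turnover, and none of that is visible in counts of mRNA.

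Library totals ran from 54572365 to 69764836 counts, and SON itself checked the labels. Levels are given as CPM, counts scaled to a common library size with TMM (trimmed mean of M values) factors. SON (chromosome 21) stood at 295.3, 313 and 284 CPM in the siControl libraries and at 68.0, 69.96 and 65 CPM after knockdown, which left 22.8% of the control level. Of 8 markers of mature retinal pigment epithelium, 4 stayed under 1 CPM in every library, among them RPE65 (at most 0.258 CPM) and TTR (0 in all 6), while OTX2 and MITF were at 19.7 CPM or above throughout. Of 7 markers of blood, endothelial, photoreceptor and glial cells, 5 stayed under 1 CPM in every library, and their summed level was 2.85 to 3.9 CPM in siControl and 1.3 to 1.84 CPM in siSON. In both groups the pairs of replicates that included replicate 1 differed most, with chi-square values per degree of freedom between 18.6 and 25.2 against 7.24 and 6.94 for replicates 2 and 3. Because fewer cells in a cycle phase and less mRNA per cell give the same bulk value, they cannot be told apart here.

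After SON knockdown CDK6 and CDKN1B rose, CCND1, CDK2, CDK4 and RBL2 fell, and RB1 passed the test with a small rise, whose log2 fold change was -0.05 under cyclic loess normalization. CDK6 went to 4.42-fold of the control level and CDKN1B to 2.45-fold, while CDK2 was left at 45.9%, CCND1 at 65.3%, CDK4 at 69.3% and RBL2 at 72.4%. CCND3 and RBL1 did not pass the test, and CCND2 was too low to be tested. Counted over the 9 members tested, 7 were called changed, 3 higher and 4 lower, by the quasi-likelihood test of edgeR with a Benjamini-Hochberg adjusted p below 0.05. Among all 16591 genes tested 71.7% were called, 35.2% higher and 36.5% lower, so the share of members called is near the background. Their median log2 fold change (siSON over siControl) was -0.13, beside -0.03 over all genes tested. The siControl and siSON libraries did not overlap for 6 of the 9 members, beside 75.1% of all genes tested. A 2-sided exact permutation test of log2 CPM gave p = 0.1, the smallest that 3 libraries against 3 allow, for these 6 members and p = 0.3 for CCND3, RB1 and RBL1. Scaling by library size alone shifted the median over all genes to -0.22 and split the calls into 4441 higher and 7351 lower instead of 5834 and 6054, and it split the members into 2 higher and 5 lower. Under cyclic loess normalization 6 members were called, 2 higher and 4 lower. Without replicate 1 of both groups 8 were called, 4 higher and 4 lower.

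**Figure D1:**
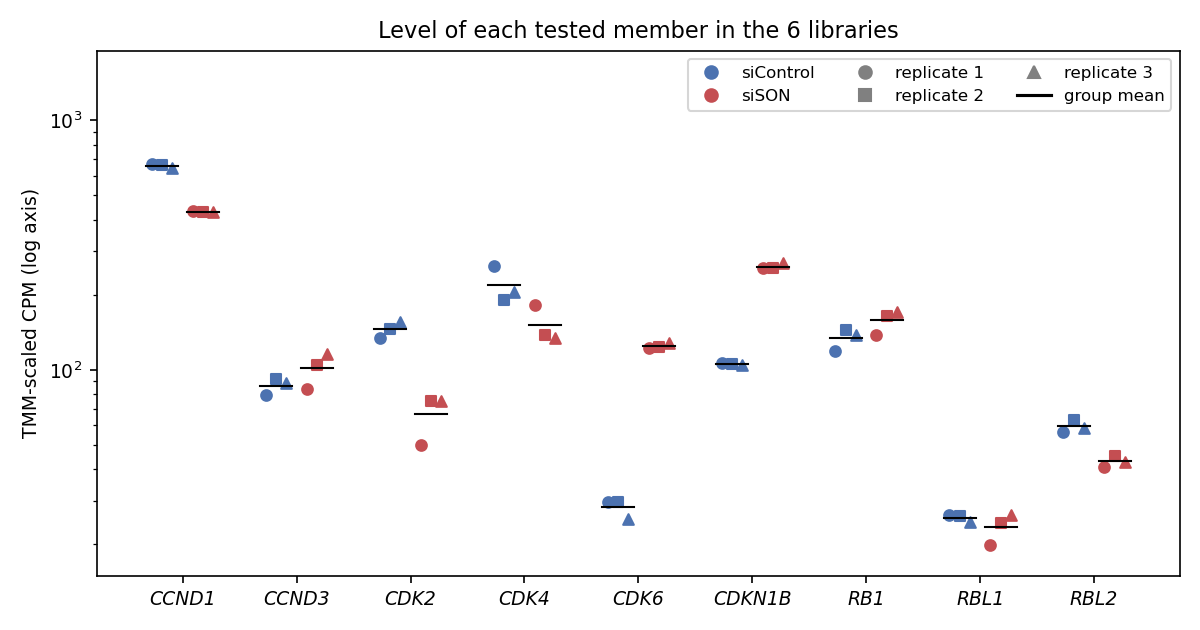
TMM-scaled CPM on a log axis for the 9 tested members in each library, with siControl in blue, siSON in red, a symbol for each replicate number and a bar at the group mean. The siControl and siSON points are apart for CCND1, CDK2, CDK4, CDK6, CDKN1B and RBL2 and overlap for CCND3, RB1 and RBL1.

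CCND1 encodes cyclin D1, the main D cyclin of many epithelial and mesenchymal cells (ENSG00000110092, GRCh38 chromosome 11, 69641087 to 69654474, plus strand, 5 exons in its principal transcript). It had 669, 661 and 647 CPM in the siControl libraries and 432, 429 and 429.8 CPM in the siSON libraries. Every siSON library was below every siControl library, and the siSON libraries hardly differed among themselves. CCND1 averaged 659 ± 11.3 CPM in siControl and 430 ± 1.35 CPM in siSON (SD, n = 3 each), which is a log2 fold change of -0.61 (standard error 0.04, edgeR adjusted p 2.24e-07). Under cyclic loess normalization the fall was larger, -1.01 on the log2 scale. CCND1 shares 497 bases of exon with LTO1 on the other strand, which had 974 to 1185 counts in siControl and 628 to 717 in siSON.

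CCND3, the cyclin D3 gene (ENSG00000112576, chromosome 6, 41934933 to 42050357, minus strand), did not follow CCND1. It had 79.1, 91.7 and 88.9 CPM in siControl and 83.8, 104.5 and 116 CPM in siSON. Replicate 1 was the lowest library of each group, and the groups overlapped. The log2 fold change was 0.23 (95% interval -0.01 to 0.47, edgeR adjusted p 0.0791). Without siSON replicate 1 it was 0.36 (adjusted p 0.00055), and under cyclic loess normalization it was -0.01 (adjusted p 0.917). CCND2 (ENSG00000118971, chromosome 12, 4273772 to 4305350, plus strand) had 2 counts in siControl replicate 1, 1 count in siSON replicate 3 and 0 in the other 4 libraries. A count of 0 allows a level of up to 3 counts, 0.0402 to 0.059 CPM in these libraries, so cyclin D2 mRNA was not detectable at this depth in either group and no fold is given.

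Per kilobase of merged exons, which allows different genes to be compared, the D cyclin pool was 151 ± 1.88 CPM per kb (SD, n = 3) in siControl and 107 ± 2.58 CPM per kb in siSON. CCND1 made up 91, 89.6 and 89.7% of that pool in the siControl libraries and 86.1, 83.1 and 81.6% in the siSON libraries. CCND3 made up the rest, 9.86 ± 0.778% and 16.4 ± 2.26% (SD, n = 3 each), and stayed the minor D cyclin in all 6. Where the longest transcript of each gene was used as its length, the CCND3 share was 19.1% in siControl and 29.7% in siSON, so its level relative to CCND1 depends on which exons are counted as its length. As counts within a library, which need no scaling between libraries, the log2 ratio of CCND1 to CCND3 fell from 2.93 ± 0.13 to 2.10 ± 0.24 (SD, n = 3 each). The exact permutation test of that difference, 2-sided, gave p = 0.1, the smallest that 3 libraries against 3 allow, and an adjusted p of 0.15 over the 9 pairs compared.

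The kinases moved in opposite directions. CDK6 (ENSG00000105810, chromosome 7, 92604921 to 92836594, minus strand, 8 exons), one of the partners of the D cyclins, had 29.6, 29.7 and 25.2 CPM in siControl and 123, 123 and 128 CPM in siSON. All 3 siSON libraries stood far above the controls and within a narrow range. The log2 fold change was 2.14 (standard error 0.07, 95% interval 1.98 to 2.30, edgeR adjusted p 2.02e-09), the largest of any member, and 217 of the 16591 genes tested had a larger one. CDK4 (ENSG00000135446, chromosome 12, 57747727 to 57756013, minus strand, 8 exons), the other partner, had 261, 190.4 and 204 CPM in siControl and 183, 138 and 134 CPM in siSON. The highest siSON library lay just under the lowest siControl library, and replicate 1 was the highest of both groups, by 0.40 and 0.42 on the log2 scale over the mean of replicates 2 and 3. The CDK4 log2 fold change was -0.53 (standard error 0.14, edgeR adjusted p 0.00833). The call was lost without siSON replicate 3 (-0.44, adjusted p 0.0569) and with no filter on low counts (-0.52, adjusted p 0.122). It was kept in 13 of 15 alternative fits. Among these were replicate number as a block (-0.53, edgeR adjusted p 4.32e-07) and replicate 1 of both groups left out (-0.56, edgeR adjusted p 1.96e-08). CDK4 shares 1369 bases of exon with TSPAN31 on the other strand, which had 346 to 399 counts in siControl and 157 to 198 in siSON. The part of that overlap in the CDK4 values was not tested.

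CDK2, the kinase of cyclins E and A (ENSG00000123374, 7 exons on the plus strand of chromosome 12, 55966769 to 55972784), had 135, 146 and 155 CPM in siControl and 49.9, 75.4 and 75.3 CPM in siSON. Replicate 1 was the lowest siSON library, 0.59 below the mean of replicates 2 and 3 on the log2 scale, and even the highest siSON library was well under the controls. The log2 fold change was -1.12 (standard error 0.14, edgeR adjusted p 8.67e-05), and -0.94 (adjusted p 4.27e-08) without siSON replicate 1. CDK2 shares 89 bases of exon with PMEL on the other strand, which had 130 to 158 counts in siControl and 9 to 13 in siSON. It also shares 565 bases with the antisense gene AC025162.1, which had 8 to 15 counts in siControl and 3 to 10 in siSON. These are few beside the 2897 to 11603 counts of CDK2, but how reads in shared bases were counted is not given. The part of these overlaps in the CDK2 values was not tested.

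Within each library the log2 ratio of CDK4 to CDK6 counts was 3.14, 2.68 and 3.02 in siControl and 0.57, 0.17 and 0.07 in siSON. The difference of -2.68 was many times the spread between libraries of a group (pooled SD 0.25). That of CDK2 to CDK6 was -3.29 (pooled SD 0.28), and its sign changed: CDK2 had more counts than CDK6 in every siControl library and fewer in every siSON library. Both had an exact permutation p of 0.1 (2-sided, the smallest possible) and an adjusted p of 0.15 over the 9 pairs. The CDK2 to CDK4 ratio differed by -0.62 with a pooled SD of 0.47 (exact permutation p = 0.3, adjusted p 0.337), and by -0.28 without siSON replicate 1. By this test, which does not pair libraries, CDK2 and CDK4 were not shown to differ in their fall. The ratio was -0.95, -0.38 and -0.40 in siControl replicates 1 to 3 and -1.87, -0.87 and -0.83 in siSON replicates 1 to 3. It was lower in siSON at each replicate number, but the labels do not pair the libraries.

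**Figure D2:**
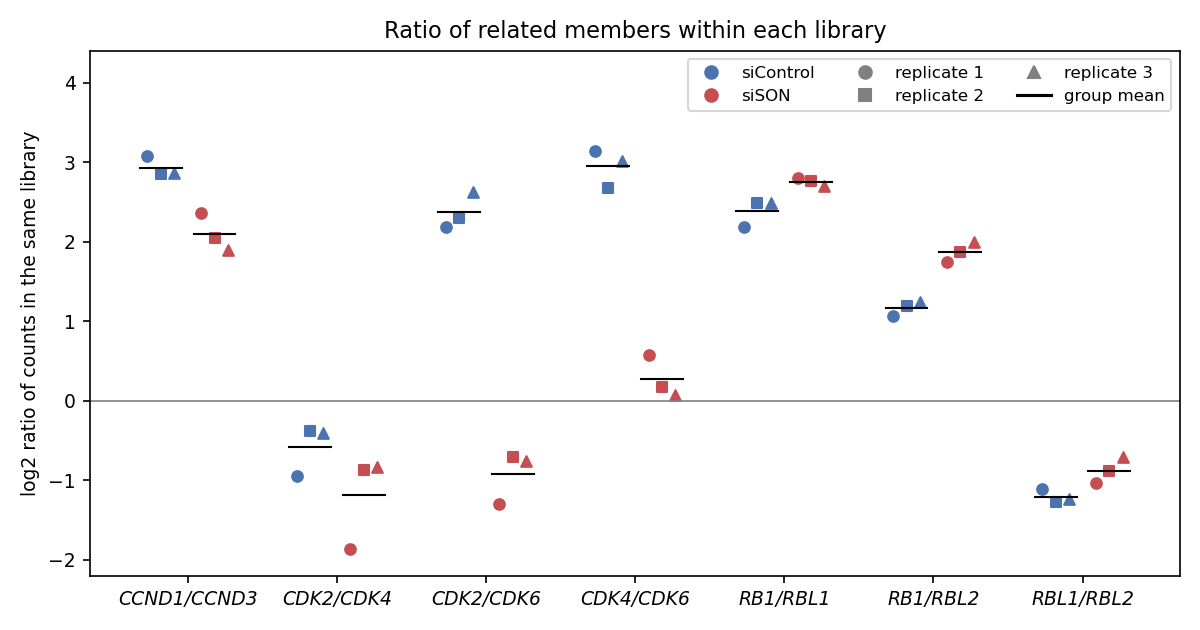
The log2 ratio of the counts of 2 related members in the same library, for the 7 pairs without CCND2; siControl in blue, siSON in red, a symbol for each replicate number, bars at group means. CDK4/CDK6 drops from between 2.68 and 3.14 to between 0.07 and 0.57, whereas the CDK2/CDK4 points of the groups overlap.

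Per kilobase of merged exons CDK6 rose from 2.3 ± 0.211 to 10.2 ± 0.221 CPM per kb (SD, n = 3 each), and CDK4 went from 69 ± 11.8 to 47.9 ± 8.47 CPM per kb. CDK6 therefore made up 2.85, 3.88 and 3.09% of the CDK4 and CDK6 mRNA of the siControl libraries and 14.8, 18.7 and 19.7% of that of the siSON libraries. CDK4 remained the more abundant of the pair in every library, by 30.1 ± 4.78 times in siControl and 4.72 ± 0.902 times in siSON (SD, n = 3 each). With the longest transcript as the length these factors were 43.5 and 6.82. The sum of both was 71.3 ± 11.9 and 58 ± 8.34 CPM per kb, and its libraries overlapped between the groups.

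**Figure D3:**
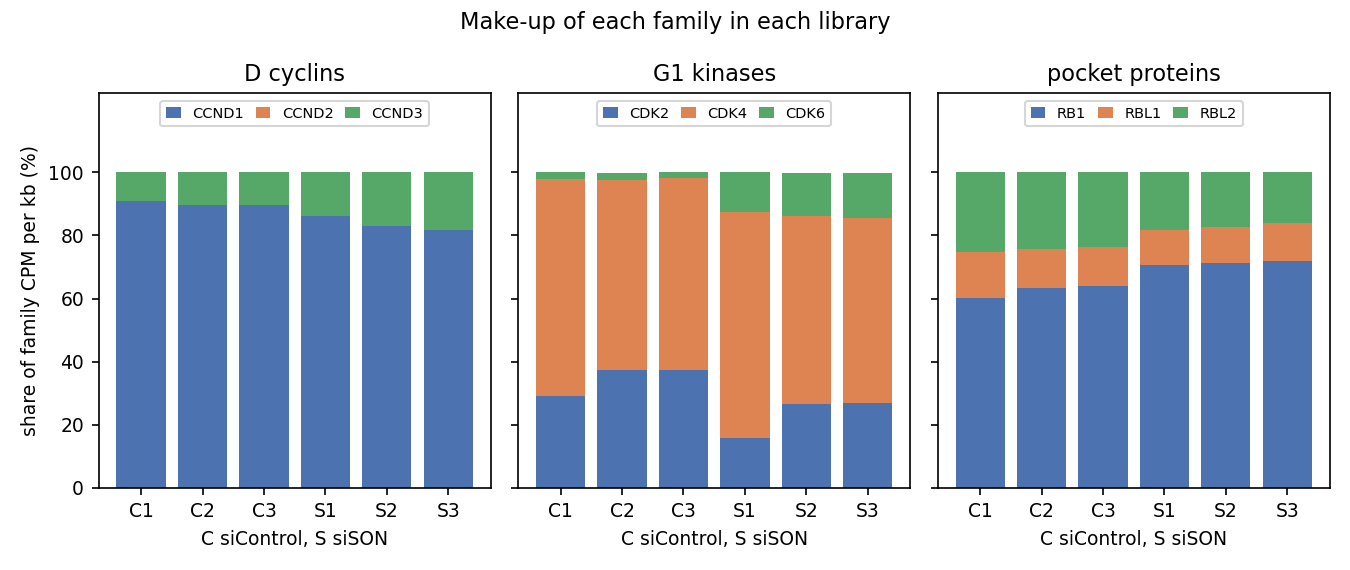
Share of each member in the summed CPM per kb of its family (percent, from merged exon lengths) for siControl libraries C1 to C3 and siSON libraries S1 to S3. CDK6 grows from 1.93 to 2.42% of the kinases to 12.5 to 14.4%, CCND3 from at most 10.4% of the D cyclins to at least 13.9%, and RB1 from at most 63.9% of the pocket proteins to at least 70.6%.

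The promoter of CDK6 is shown because CDK6 had the largest change, and that of RBL1 because RBL1 is a pocket protein gene whose own promoter carries E2F sites. RefSeq promoter windows on GRCh38.p14 were matched for 7 of the 10 members. The 250 bases before the annotated start are printed 5′ to 3′ on the strand of the gene, from chr7:92836574-92836823 (minus) for CDK6 and chr20:37095998-37096247 (minus) for RBL1. Against the GENCODE gene spans given here, the last 21 bases of the CDK6 window lie inside the gene, and the RBL1 window lies outside its gene. Capitals mark matches to the motifs searched.
CDK6: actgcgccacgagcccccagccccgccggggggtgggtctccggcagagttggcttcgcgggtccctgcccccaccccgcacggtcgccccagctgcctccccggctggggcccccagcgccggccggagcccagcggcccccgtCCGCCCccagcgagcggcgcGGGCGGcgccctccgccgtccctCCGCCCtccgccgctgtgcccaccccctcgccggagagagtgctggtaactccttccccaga
RBL1: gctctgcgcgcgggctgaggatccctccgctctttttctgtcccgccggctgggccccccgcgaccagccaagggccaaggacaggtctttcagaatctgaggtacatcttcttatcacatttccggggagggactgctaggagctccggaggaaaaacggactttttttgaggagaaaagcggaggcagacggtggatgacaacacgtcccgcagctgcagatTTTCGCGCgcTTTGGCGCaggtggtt
The motifs searched, on both strands, were the GC box GGGCGG, the CCAAT box CCAAT, the E2F sites TTTCGCGC, TTTGGCGC and TTTCCCGC, the TATA box TATAAA and the cell cycle homology region TTTGAA. CDK6 held 3 GC boxes, 105, 85 and 62 bases before the start, in a window of 80% GC; a GC box was found in 65.8% of the 10866 promoters of genes tested. RBL1 held a TTTCGCGC starting 26 bases before the start and a TTTGGCGC starting 16 bases before it, with no overlap between them. These letters were found in 0.791% and 0.874% of the promoters of genes tested. The RBL1 window was picked for its E2F sites, so these shares are descriptions only. None of the other matched member windows, those of CCND3, CDK4, CDKN1B, RB1 and RBL2, held any of the E2F sites searched. All 250 bases of each of these windows lie inside the GENCODE span of the gene. The RB1 window begins at chr13:48476200, far past the start of the RB1 span at 48303726. These windows may therefore miss the main promoter, so they do not show that these genes lack E2F sites. No further motif of the set was found in the CDK6 or the RBL1 window.

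CDKN1B encodes p27 (ENSG00000111276, chromosome 12, 12715058 to 12722371, plus strand, 3 exons). It had 107, 106 and 105 CPM in siControl and 255, 256 and 268 CPM in siSON. The libraries of each group lay close together and far from those of the other group. The levels were 106 ± 1.19 and 260 ± 7.19 CPM (SD, n = 3 each). This is a log2 fold change of 1.29 (standard error 0.05, 95% interval 1.19 to 1.40, edgeR adjusted p 3.37e-09), and 798 genes of those tested had a larger one. It was 1.10 with library size alone and 1.00 under cyclic loess normalization. A transcript inside a CDKN1B intron on the same strand, AC008115.3, had 190 to 211 counts in siControl and 107 to 213 in siSON, against 6738 to 14814 for CDKN1B.

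The ratios of CDKN1B to its partners, chosen after the values were seen, are given as descriptions. Per kilobase of merged exons CDKN1B mRNA was 1.1, 1 and 0.933 times that of CDK2 in the siControl libraries and 7.08, 4.7 and 4.93 times in the siSON libraries. Against the summed D cyclins it was 0.249 ± 0.0016 in siControl and 0.866 ± 0.0137 in siSON (SD, n = 3 each). Both ratios were higher in every siSON library than in any siControl library. Protein levels were not measured.

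Among the pocket proteins RBL2 fell, RB1 rose by a small amount that depended on the scaling, and RBL1 was not shown to change. RBL2 (p130, ENSG00000103479, chromosome 16, 53433977 to 53491649, plus strand, 22 exons), which is the pocket protein typical of quiescent cells, had 56.6, 63.0 and 58.5 CPM in siControl and 41.0, 45.1 and 43.0 CPM in siSON. Every siSON library was below every siControl library. The log2 fold change was -0.46 (standard error 0.07, edgeR adjusted p 6.98e-05). RBL2 shares 610 bases of exon with AKTIP on the other strand, which had 742 to 899 counts in siControl and 532 to 633 in siSON. It also shares 721 bases with AC007342.6 on the other strand, which had at most 4 counts in any library.

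RB1, the retinoblastoma gene (ENSG00000139687, chromosome 13, 48303726 to 48599436, plus strand, 27 exons), was measured at 119, 144 and 139 CPM in siControl and at 138, 165 and 171 CPM in siSON. Replicate 1 was the lowest library of each group, and siSON replicate 1 lay inside the range of the controls. The log2 fold change was 0.24 (standard error 0.09, 95% interval 0.04 to 0.44, edgeR adjusted p 0.0347). It was 0.04 (adjusted p 0.723) with library size alone and -0.05 (adjusted p 0.639) under cyclic loess normalization, and 0.13 (adjusted p 0.182) without siControl replicate 1. With replicate number as a block in the fit it was 0.24 (edgeR adjusted p 0.000403). The direction and the call were kept in 8 of 15 alternative fits. RBL1 (p107, ENSG00000080839, chromosome 20, 36996349 to 37095995, minus strand, 22 exons) had 26.2, 25.9 and 24.7 CPM in siControl and 19.8, 24.3 and 26.2 CPM in siSON. The groups overlapped, and siSON replicate 1 was the lowest of the 6. The log2 fold change was -0.13 (95% interval -0.34 to 0.09, edgeR adjusted p 0.262). It was -0.01 (adjusted p 0.941) without siSON replicate 1 and -0.32 (adjusted p 0.0145) with library size alone.

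Ratios of pocket protein counts within a library do not change with a single scaling factor per library. Cyclic loess normalization shifts genes by their level and was not run on the ratios. Under it the log2 fold changes were -0.05 for RB1, -0.12 for RBL1 and -0.60 for RBL2. The log2 ratio of RB1 to RBL2 counts was 1.07, 1.19 and 1.24 in siControl and 1.75, 1.87 and 1.99 in siSON, a difference of 0.70 with a pooled SD of 0.10. The RB1 to RBL1 ratio differed by 0.37 (pooled SD 0.13) and the RBL1 to RBL2 ratio by 0.33 (pooled SD 0.13). For all 3 pairs the groups were apart, with an exact permutation p of 0.1 (2-sided, the smallest possible) and an adjusted p of 0.15. Per kilobase of merged exons the 3 genes together stood at 33.2 ± 2.4 CPM per kb in siControl and 34.3 ± 3.43 CPM per kb in siSON (SD, n = 3 each). RB1 was 62.5 ± 1.91% of that pool in siControl and 71.3 ± 0.724% in siSON, and RBL2 was 24.5 ± 0.77% and 17.2 ± 1.22%.

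**Figure D4:**
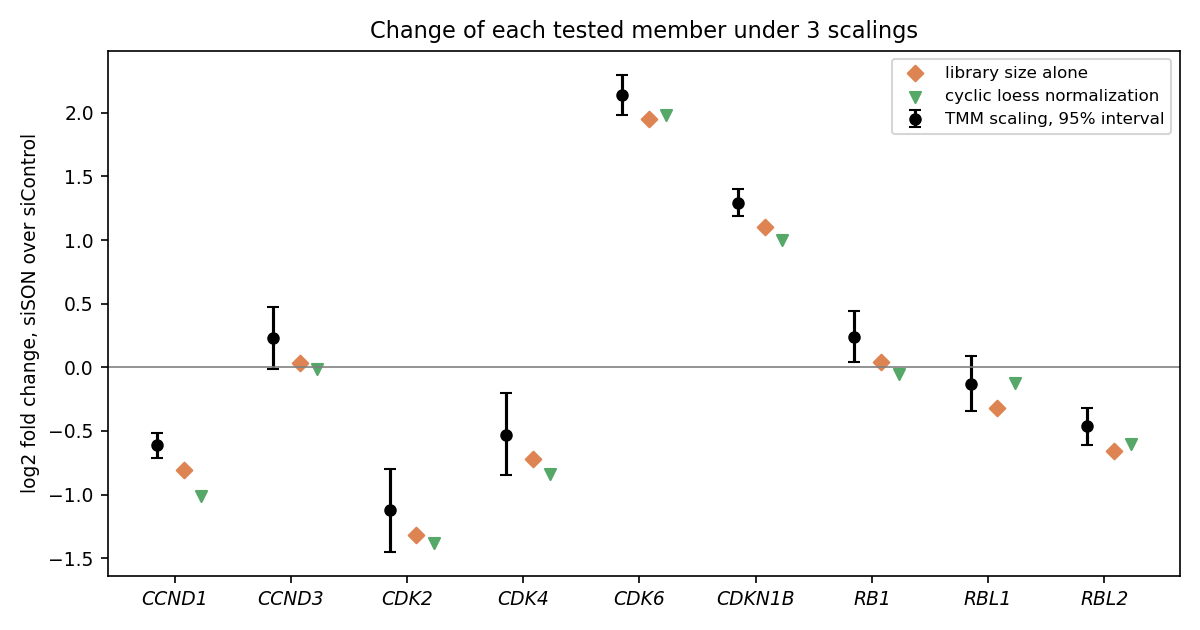
Log2 fold change of the 9 tested members, siSON over siControl, with TMM scaling (black, 95% interval) and the values with library size alone (orange) and cyclic loess normalization (green). CDK6, CDKN1B, CCND1, CDK2, CDK4 and RBL2 keep their direction under all 3, while CCND3 and RB1 sit at 0.23 and 0.24 with TMM and near 0 with the other scalings.

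The order of levels per kilobase of merged exons in siControl was CCND1 (136 ± 2.35 CPM per kb), CDK4 (69 ± 11.8), CDKN1B (37.6 ± 0.423), CDK2 (37.4 ± 2.63), RB1 (20.8 ± 2.05), CCND3 (14.9 ± 1.14), RBL2 (8.11 ± 0.449), RBL1 (4.3 ± 0.133) and CDK6 (2.3 ± 0.211), each as mean and SD over 3 libraries. CDKN1B and CDK2 were within their spread of each other on these lengths. In siSON the order was CDKN1B (92.3 ± 2.56), CCND1 (89.1 ± 0.279), CDK4 (47.9 ± 8.47), RB1 (24.5 ± 2.67), CCND3 (17.5 ± 2.82), CDK2 (17.2 ± 3.77), CDK6 (10.2 ± 0.221), RBL2 (5.88 ± 0.286) and RBL1 (3.94 ± 0.546). CCND3 and CDK2 were within their spread of each other there. Several of these places depend on the length used. Per kilobase of the longest transcript CDK2 (56 ± 3.94) stood above CDKN1B (39.8 ± 0.448) in siControl. In siSON CCND1 (99.9 ± 0.312) and CDKN1B (97.7 ± 2.71) were then within their spread of each other, and CCND3 (42.4 ± 6.82) stood above RB1 (32.9 ± 3.6) and CDK2 (25.7 ± 5.65). On both lengths CDK6 was the lowest of the 9 in siControl and above RBL2 and RBL1 in siSON.

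The gene models of the members differ widely in the amount of intron they hold. In the principal GENCODE transcript CDK6 has 217 kb of intron with a median intron of 48339 bases, above 94.5% and 99.2% of the 12668 genes tested that have introns. CDK4 has the same number of exons, 8, with 2.72 kb of intron and a median intron of 157 bases, above 8.01% and 3.03% of those genes. CDK2, with 3.72 kb of intron, and CCND1, with 9.08 kb, also hold little intron in total, at percentiles 10.9 and 24.5. The median intron is 567 bases in CDK2 (percentile 18.6) but 2247 bases in CCND1 (percentile 57.6). CDKN1B holds about as little intron in total as CDK4, 2.59 kb (percentile 7.7), and rose. Its median intron is longer than that of CDK4, 1295.5 bases (percentile 36.3). RB1 (173 kb) and RBL1 (94 kb) are long genes, with log2 fold changes of 0.24 and -0.13. RBL2 holds 52.3 kb of intron and CCND3 4.83 kb, with log2 fold changes of -0.46 and 0.23. Their median introns are 1570 and 702.5 bases (percentiles 43.4 and 21.9). Over the 9 tested members Spearman's rho between the log2 fold change and total intron length was 0.37, with the median intron length it was 0.53, and with transcript GC content it was -0.52. Over all genes tested with introns these were 0.24, 0.25 and -0.21. The 9 points share the same 6 libraries, so these values are descriptions. Counts per gene carry no information on intron removal, so splicing was not analysed here.

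The other genes of the pathway were described with 6 lists, whose counts stand beside 35.2% of all genes tested called higher and 36.5% called lower. Of 6 CDK inhibitors other than p27, all tested, 1 rose and 4 fell, with a median log2 fold change of -0.81. CDKN1A (p21), the p53-induced inhibitor of CDK2, went from 2090 ± 89.1 to 919 ± 46 CPM (n = 3 each, SD; log2 fold change -1.19, edgeR adjusted p 1.01e-08), the opposite direction to CDKN1B. CDKN2D (p19), an inhibitor of CDK4 and CDK6, fell by 1.72 on the log2 scale (adjusted p 3.88e-07). CDKN2A, which encodes p16 and ARF, rose by 0.79 (adjusted p 7.28e-07).

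Of 14 genes for E and A cyclins, CDK2 activation and the CDK-activating kinase, 13 were tested, 7 rose and 3 fell, with a median of 0.16. With library size alone 4 rose and 3 fell, with a median of -0.04, and under cyclic loess normalization 6 rose and 4 fell. CCNE2, cyclin E2 and a partner of CDK2, had 23.4 ± 1.88 CPM in siControl and 1.05 ± 0.412 CPM in siSON (SD, n = 3 each), 4.51% of the control level (log2 fold change -4.49, edgeR adjusted p 1.86e-08). The 2 other genes with the smallest adjusted p both inhibit CDK1 and differed in direction: PKMYT1 fell by 2.55 (adjusted p 4.58e-08) and WEE1 rose by 1.37 (adjusted p 6.37e-07), both as log2 fold changes.

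Of 10 E2F and DP genes, all tested, 4 rose and 5 fell, with a median of -0.23, shares near those over all genes tested; with library size alone, and also under cyclic loess normalization, 2 rose and 5 fell. E2F1, an activating E2F held by RB1, fell by 2.22 on the log2 scale (edgeR adjusted p 6.7e-07), and TFDP1, the DP partner of the E2F factors, fell by 0.74 (adjusted p 5.11e-06). E2F6, a repressor that binds no pocket protein, rose by 1.28 (adjusted p 1.34e-07). Of 9 genes of the MuvB core with B-Myb and FOXM1, 4 rose and 3 fell, with a median of 0.11 (3 and 4, with a median of -0.09, under library size alone). MYBL2 (B-Myb) fell by 1.94 (adjusted p 9.95e-06), whereas LIN52, the MuvB subunit that contacts RBL1 and RBL2, rose by 0.79 (adjusted p 1.53e-05). DYRK1A, the kinase that phosphorylates LIN52, rose by 0.68 (adjusted p 1.62e-05).

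Of 18 genes linked to the turnover of D cyclins, cyclin E and p27, mostly ubiquitin ligase parts, 11 rose and 5 fell, with a median of 0.37. With library size alone 9 rose and 7 fell, with a median of 0.17. The list also holds the kinase GSK3B and the ubiquitin-conjugating enzyme CDC34. CUL4A, a cullin scaffold, rose by 0.92 (edgeR adjusted p 3.52e-08). FBXW8 and FBXO31, F-box proteins reported to target cyclin D1, rose by 1.38 and 1.00 (adjusted p 4.9e-08 and 1.1e-07). Of 26 E2F target genes of S-phase entry, 24 fell and 0 rose, with a median of -0.83, beside 36.5% of all genes tested called lower. With library size alone all 26 fell. CDC45, GINS4 and TK1 fell by 2.86, 2.18 and 3.35 on the log2 scale (adjusted p 3.37e-09, 1.36e-08 and 2.16e-07).

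**Figure D5:**
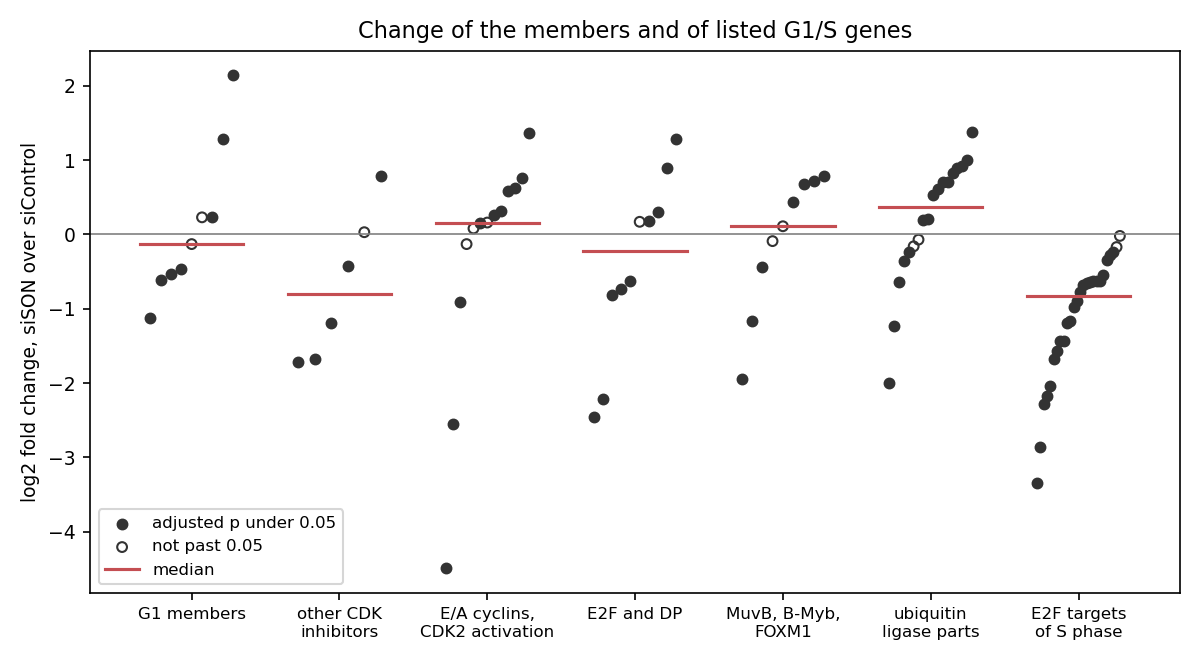
Log2 fold change, siSON over siControl, of each tested member and of each tested gene of the 6 pathway lists; filled points passed an adjusted p of 0.05, open points did not, and red bars are medians. The members spread from -1.12 to 2.14 around a median of -0.13, while all 26 E2F targets lie below 0, with a median of -0.83.

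The genes whose log2 CPM over the 6 libraries was most like that of CDK6, the member with the smallest adjusted p, were FNTB, WDR75 and PTBP2, with Pearson's r of 0.99945, 0.99938 and 0.99936 over 6 libraries. Among 11584 genes compared, 1044 had an r above 0.99, since any gene with a rise larger than its spread gives a high r with 2 groups of 3. PTBP2 rose from 13.4 ± 1.79 to 152 ± 7 CPM (n = 3 each, SD; log2 fold change 3.50), FNTB by 0.83 and WDR75 by 0.64.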

How the data were processed

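The authors deposited unnormalized whole-number counts for each gene, 1 column per library, without pooling. Per the submitters' processing notes, cutadapt 1.16, STAR 2.5.2a, featureCounts 1.6.2 and DESeq2 1.28.1 are named, with build hg38; strandedness and how multi-mapping reads were handled are not given in the sources used here, so counts of genes that overlap on opposite strands are uncertain. All 58735 identifiers matched GENCODE 29 (GRCh38), the source of positions, lengths and introns. Processed pseudogenes named after CDK4, CCND2 and CCND3 had at most 1 count.

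The counts were tested with edgeR 4.0.16 in R 4.3.3 (filterByExpr with a minimum count of 10, TMM, robust quasi-likelihood fit on group, Benjamini-Hochberg adjustment over all genes tested). The fit was also run on simulated counts in which few genes changed, unlike here. That run does not check the scaling used for these data. Alternatives used DESeq2 1.42.0, limma 3.58.1 (voom, and cyclic loess on log2 CPM with a prior count of 2), other scalings and filters, a replicate block and omitted libraries. Ratios used counts plus 2. The limit for a count of 0 (3 counts) covers counting error only. Named genes are the members, SON, the 3 genes per list with the smallest adjusted p, and the 3 genes most like CDK6. Members and lists were chosen with earlier results of these data known.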

Additional observations from a re-analysis of the deposited data

How the results depend on the processing

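The 15 alternatives comprised 14 planned ones and 1 added after the data were seen, which left out replicate 1 of both groups. The number of members called (7) ranged from 5 to 8 across the fits that left out one library, and was 8 with the replicate block. CCND1, CDK2, CDK6, CDKN1B and RBL2 kept their direction and their call under all 15, with log2 fold changes of -1.01 to -0.60, -1.38 to -0.94, 1.95 to 2.17, 1.00 to 1.32 and -0.66 to -0.42. CDK4 kept its direction (-0.84 to -0.41) and its call in 13 of 15. RB1 kept both in 8 of 15; its sign turned under cyclic loess normalization (-0.05), as did that of CCND3 (-0.01), and it lost its call with a mean count of at least 50 (0.18, adjusted p 0.0923). CCND3 kept its direction and stayed uncalled in 10 of 15. It was called with the block (0.22, adjusted p 0.00501) and with no low-count filter (0.23, adjusted p 0.00152). It was also called without siSON replicate 1 (0.36, adjusted p 0.00055) and without replicate 1 of both groups (0.26, adjusted p 0.000549). The causes were not tested. The labels do not say that replicate numbers pair the libraries. Deviations of same-numbered libraries correlated at 0.194, 0.0461 and 0.118, not all above 0.1. Each of the 6 libraries still correlated best with its own number in the other group. The column headers also carry running numbers in which the siControl and siSON libraries of the same replicate number are neighbours. What these numbers stand for is not given, so a pairing was not established. With the replicate block 12313 genes were called against 11888. The CCND2/CCND3 difference of log2 ratio (0.02) turned to -0.09 with a pseudocount of 0.5 and ranged from -0.22 to 0.41 without single libraries (-0.13, -0.22 and -0.11 without siControl replicates 2 and 3 and siSON replicate 3); that of CCND1/CCND2 (-0.85) ranged from -1.17 to -0.62 without single libraries and was -1.33 without replicate 1 of both groups. Both rest on at most 2 counts of CCND2 in a library. The differences of the 7 ratios without CCND2 moved by less than the spread between libraries under every alternative run on them. The replicate block could not change them, because the mean of the same-numbered differences equals the difference of group means. Cyclic loess normalization was not run on the ratios.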
